A study of Mus musculus with 6 samples.

Results

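Mpo, Elane, Prtn3, Ctsg, Ms4a3, Nkg7, Plac8 and Igsf6 are genes that mouse bone marrow transcribes in granulocyte-monocyte progenitors and promyelocytes. These 8 genes, out of 55487 in the deposited table, were chosen by name on their fasted and control values in these same libraries, so their group difference is described here without a test. All 8 were found in the table, once each, and all 8 passed both filters on low counts used below. The libraries hold polyadenylated RNA of megakaryocyte-erythroid progenitors, the precursors of red cells and platelets, sorted from the marrow of wild type C57BL/6 mice of 8 weeks. The control group has 3 libraries and the group fasted for 6 h has 3, and the stated purpose was to see what fasting does to red cell formation. The labels give no sorting gate, no sex and no batch, and do not say whether a library is 1 mouse or a pool, so p-values measure the spread between libraries, which may be technical.

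Primary, or azurophil, granules are the first granules that a neutrophil precursor builds. They are filled at the promyelocyte stage with myeloperoxidase and a family of serine proteases, and the genes for this cargo are switched off again as the cell matures and turns to secondary and tertiary granules. In the classical scheme of the marrow, granulocyte-monocyte progenitors already transcribe the cargo genes, while megakaryocyte-erythroid progenitors are the sister branch from the common myeloid progenitor.

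PU.1 and the C/EBP, RUNX and MYB factors are known to act at myeloid promoters, and the 250 bases before the RefSeq start of each gene were searched on both strands for short cores of their motifs. RefSeq (GRCm38.p6) gave 9 start entries for the 8 genes, 2 of them for Plac8. The letters GAGGAAG, a PU.1-type core, were present in the windows of Mpo, Elane, Prtn3 and Ctsg, the 4 genes for primary granule enzymes, and in 0 windows of the other 4 genes. Of all 32851 windows of the same length, 10.6% held these letters. The windows of the 4 enzyme genes are shown up to the first base that GENCODE M21 places in an exon of the gene, 5′ to 3′ on the gene's strand, with GAGGAAG in capitals, because these letters are what the 4 share and the other genes lack.
Mpo, chr11:87793534-87793580, plus strand: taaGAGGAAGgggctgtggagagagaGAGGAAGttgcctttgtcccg
Elane, chr10:79886062-79886246, plus strand: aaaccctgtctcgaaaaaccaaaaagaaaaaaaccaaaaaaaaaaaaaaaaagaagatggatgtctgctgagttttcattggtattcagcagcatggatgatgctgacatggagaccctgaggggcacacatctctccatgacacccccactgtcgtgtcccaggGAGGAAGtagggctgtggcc
Prtn3, chr10:79879417-79879613, plus strand: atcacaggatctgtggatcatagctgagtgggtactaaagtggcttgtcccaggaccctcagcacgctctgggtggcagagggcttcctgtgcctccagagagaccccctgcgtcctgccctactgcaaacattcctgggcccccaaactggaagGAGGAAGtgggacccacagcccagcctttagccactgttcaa
Ctsg, chr14:56102575-56102824, minus strand: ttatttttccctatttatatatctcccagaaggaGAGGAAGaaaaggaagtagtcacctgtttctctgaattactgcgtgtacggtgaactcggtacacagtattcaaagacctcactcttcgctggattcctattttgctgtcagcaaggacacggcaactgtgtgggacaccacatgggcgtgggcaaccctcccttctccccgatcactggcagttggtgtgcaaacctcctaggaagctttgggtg
Counted from the RefSeq start, the PU.1-type letters began at -247 and -224 in Mpo, -85 in Elane, -95 in Prtn3 and -216 in Ctsg. The other cores were commoner in windows at large. TTNNGNAA, the C/EBP-type core, was in 4 of the 9 windows (Ms4a3, both of Plac8, and Igsf6) against 36.8% of all windows. TGNGGT, the RUNX-type core, was in 4 of 9 (Ctsg, Nkg7 and both of Plac8) against 40.1%, and AACNGNC, the MYB-type core, was in 6 of 9 against 27.7%. A match is a description of the letters only, and binding was not measured.

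The depth of the libraries was not equal between the groups. Total counts were 22445970 to 30246110 in the control libraries and 12797144 to 18225191 in the fasted ones. Reads spread thinly over genes that these cells should not use, estimated from 1435 odorant and vomeronasal receptor genes, would make up 6.35% ± 2.35 of the control counts and 13.1% ± 1.55 of the fasted counts if every exon received them at that rate (SD, n = 3 libraries each). Scaling factors differed with the genes used. Trimmed mean of M-values (TMM) factors over all genes tested were 0.755 to 0.937 in the control and 1.05 to 1.29 in the fasted libraries. From the 10637 genes that reached 5 times the background and passed the low-count filter, they were 0.968 to 0.996 and 0.968 to 1.06. Whether the background moved the factors was not tested. Levels are given as CPM (counts scaled to 1000000 per library) with library sizes and TMM factors from these 10637 genes. On this scale the erythroid markers Gata1, Klf1 and Epor were present in every library, Gata1 at 158 to 390 CPM in the control and 221 to 282 CPM in the fasted libraries. The summed erythroid list (18 genes) was lowest in control 3, at 5628 CPM, and highest in fasted 3, at 12142 CPM, with the other 4 libraries between 7976 and 9749 CPM. Control 3 and fasted 3 are also the libraries at the opposite ends for the granule genes, and control 1 stood apart by its low secondary granule genes, so values are given for each library and with these libraries left out.

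The 8 genes were lower in the fasted than in the control libraries on average, and the libraries within each group differed widely. Together they took 0.389%, 1.08% and 1.66% of all counts in control 1, 2 and 3, and 0.406%, 0.238% and 0.0960% in fasted 1, 2 and 3. The highest control library therefore held the genes at a far larger share than control 1, and control 1 and fasted 1 lay side by side. The log2 fold changes, fasted against control, ran from -3.56 for Ms4a3 to -1.11 for Plac8 with a median of -2.11, beside a median of 0.02 over the 10637 genes. In this bulk RNA, fewer cells that carry these transcripts and less of the RNA per cell cannot be told apart.

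**Figure D1:**
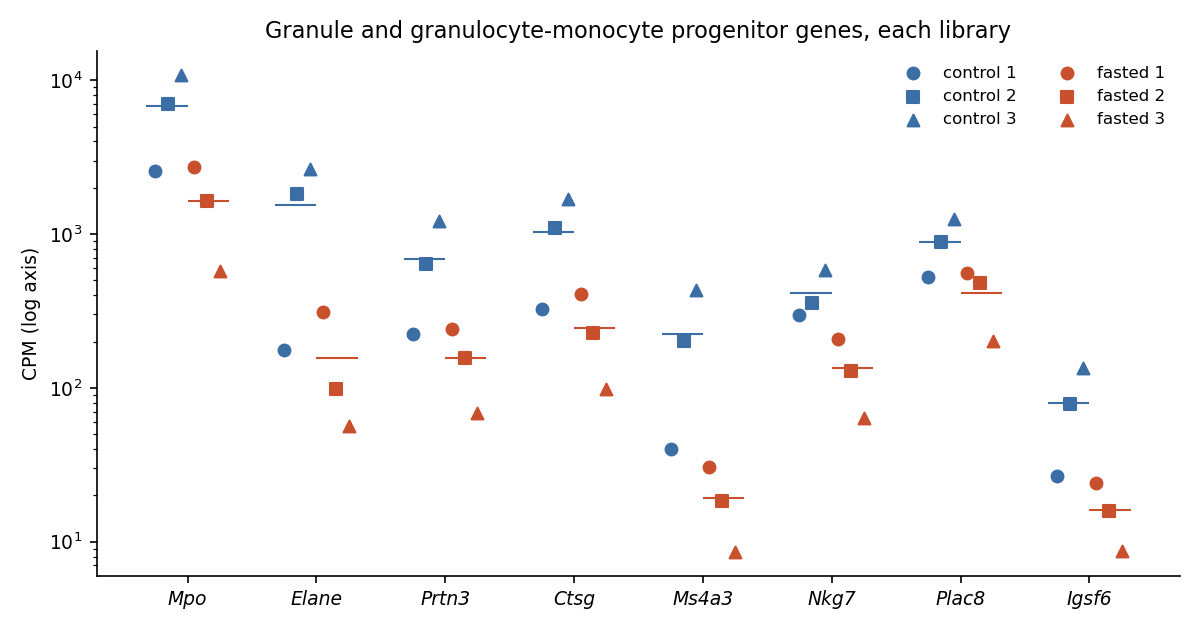
Level of each of the 8 genes in every library, in CPM on a log axis. Circles, squares and triangles are libraries 1, 2 and 3 of each group, blue for control and orange for fasted, and each bar is the group mean (n = 3). Fasted 3 is the lowest library for all 8 genes and control 3 the highest, while fasted 1 lies close to control 1.

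Mpo encodes myeloperoxidase, the haem enzyme that makes hypochlorous acid in the granule and the phagosome. Its level was 2580, 7013 and 10884 CPM in control 1, 2 and 3, and 2733, 1639 and 573 CPM in fasted 1, 2 and 3. Control 2 and 3 stood above all fasted libraries, while control 1 lay just under fasted 1, so the groups overlapped. The group means were 6826 ± 4155 and 1648 ± 1080 CPM (SD, n = 3 each), a ratio of 4.14, and the log2 fold change was -2.05 (SE 0.77). By level per kilobase of exon, Mpo ranked 6 among all genes in control 3, 24 in control 1 and 26 in fasted 1, and 277 in fasted 3. The counts behind these values were 72380, 165607 and 215356 in the control libraries and 31446, 25701 and 7596 in the fasted ones, so counting error is small against the spread between libraries. Mpo lies at chr11:87793581-87804413 on the plus strand (GRCm38, GENCODE M21), with 15 exon blocks and 3424 exonic bases. The gene Gm11505 shares 512 exonic bases with it on the opposite strand and had at most 18 counts in a library; how reads in the shared bases were counted is not known.

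Elane encodes neutrophil elastase, the serine protease whose human counterpart is mutated in cyclic and severe congenital neutropenia. It had 177, 1816 and 2638 CPM in the control libraries and 312, 98.8 and 56.3 CPM in the fasted libraries. Control 1 was far below the other control libraries and lay between fasted 1 and fasted 2. The means were 1544 ± 1253 and 156 ± 137 CPM, with a log2 fold change of -3.31 (SE 1.18), the widest error of the 8 genes. Its range over all 6 libraries was 46.8-fold, second to Ms4a3. Its rank per kilobase moved from 8 in control 3 to 1080 in fasted 3. Elane is at chr10:79886247-79888215 on the plus strand, in 5 exon blocks.

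Prtn3 encodes proteinase 3, an autoantigen of small-vessel vasculitis, and it lies 3072 bases before Elane on the same strand at chr10:79874476-79883174. Its levels were 225, 637 and 1211 CPM in the control libraries and 243, 156 and 68.1 CPM in the fasted libraries. As with Mpo, control 1 lay just under fasted 1 and the other libraries were apart by group. The means were 691 ± 495 and 156 ± 87.4 CPM and the log2 fold change was -2.15 (SE 0.76). Plppr3 overlaps Prtn3 by 159 exonic bases on the opposite strand. Plppr3 had 2567 to 2864 counts in the control and 613 to 1066 in the fasted libraries, and since the strand setting of the counting is not given, reads in that overlap cannot be assigned between them.

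Ctsg encodes cathepsin G, a protease with chymotrypsin-like specificity, and sits at chr14:56099881-56102574 on the minus strand among the mast cell protease and granzyme genes. It had 326, 1091 and 1682 CPM in the control libraries and 410, 229 and 98.7 CPM in the fasted libraries. The order of the libraries was the same as for Mpo, Elane and Prtn3, with control 3 highest, then control 2, fasted 1, control 1, fasted 2 and fasted 3. The means were 1033 ± 680 and 246 ± 156 CPM, and the log2 fold change was -2.07 (SE 0.78).

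Ms4a3 encodes a membrane protein with several membrane-spanning segments, and its expression marks granulocyte-monocyte progenitors and their progeny in mouse lineage tracing. It had 40.3, 200 and 435 CPM in the control libraries and 30.5, 18.5 and 8.59 CPM in the fasted libraries. Every fasted library was below every control library, although fasted 1 and control 1 differed far less than control 1 and control 3. Its means were 225 ± 199 and 19.2 ± 10.97 CPM, and its log2 fold change of -3.56 (SE 1.00) and its range of 50.7-fold over the 6 libraries were the largest of the 8 genes. Ms4a3 is at chr19:11629496-11640851, minus strand.

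Nkg7 encodes a granule membrane protein best known from natural killer and cytotoxic T cells. Its levels were 299, 354 and 585 CPM in the control libraries and 208, 129 and 63.8 CPM in the fasted libraries, with no overlap between groups. The means were 412 ± 152 and 134 ± 72.2 CPM and the log2 fold change was -1.63 (SE 0.48). The control libraries spanned 1.96-fold, the narrowest control range of the 8. Of 13 natural killer and T cell markers, 0 reached 5 times the background, and their summed level was 26.3 to 40.7 CPM in the control and 69.1 to 89.1 CPM in the fasted libraries, below Nkg7 alone in 5 of the 6 libraries and above it in fasted 3. Nkg7 is a short gene at chr7:43437073-43438249 on the plus strand.

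Plac8 encodes a small cysteine-rich protein found in myeloid cells, and it showed the smallest difference. It had 524, 889 and 1248 CPM in the control libraries and 556, 479 and 200 CPM in the fasted libraries. Fasted 1 was above control 1, and fasted 2 was not far below it, so only fasted 3 lay clearly under the control libraries. The means were 887 ± 362 and 412 ± 187 CPM, and the log2 fold change was -1.11 (SE 0.47). Plac8 is at chr5:100553725-100572245, minus strand.

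Igsf6 encodes an immunoglobulin superfamily receptor of myeloid cells, and it was the least abundant of the 8 per kilobase in the control libraries, with 36.8 CPM per kilobase against 1994 for Mpo. Its levels were 26.8, 78.0 and 135 CPM in the control libraries and 24.0, 15.8 and 8.67 CPM in the fasted libraries. The groups did not overlap, but control 1 and fasted 1 were close. The means were 80.0 ± 54.2 and 16.2 ± 7.66 CPM and the log2 fold change was -2.31 (SE 0.66). Igsf6 is at chr7:121064067-121074572, minus strand. Its span overlaps that of Mettl9, which is read the other way, with 0 exonic bases in common. Mettl9 counts were 1100 to 1426 in the control and 531 to 750 in the fasted libraries.

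By exonic length, the control means ordered the genes as Mpo at 1994, Elane at 1569, Ctsg at 1000, Plac8 at 557, Nkg7 at 451, Prtn3 at 399, Ms4a3 at 120 and Igsf6 at 36.8 CPM per kilobase. In the fasted libraries Plac8 came after Mpo, at 259 CPM per kilobase against 481, and was followed by Ctsg at 238, Elane at 158, Nkg7 at 146, Prtn3 at 89.9, Ms4a3 at 10.2 and Igsf6 at 7.43. With the spreads given above, neighbours in these orders from Mpo to Prtn3 mostly overlap between libraries, while Ms4a3 and Igsf6 lay below the other 6 genes within each library. Sequence shared between transcripts of the 8 genes and other transcripts was searched on the transcript strand only. Of the 50-base words of the 8 genes, 0 were shared with transcripts of another gene for 7 genes, and 0.228% for Mpo. The opposite strand was not searched, so the exonic overlaps of Mpo with Gm11505 and of Prtn3 with Plppr3 do not enter these shares.

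Across the table, the edgeR quasi-likelihood test over 36508 genes called 3.82% of genes lower and 1.15% higher at a Benjamini-Hochberg adjusted p under 0.05. This balance turned with the scaling. It was 1393 lower and 420 higher with TMM factors over all genes, 299 lower and 4224 higher with library totals, and 255 lower and 4990 higher with TMM factors from the genes above the background. Of the 8 genes, 3 were called lower (Nkg7, Plac8 and Igsf6) and 0 higher, and nothing is read from this count because the genes were chosen on the same contrast. The count was 0 with library totals (0.819% of all genes called lower) and with TMM factors from the genes above the background (0.698%). It was 6 with RLE factors (7.32%), 8 with limma-voom (2.86%) and 8 with DESeq2 (23.0% of the genes given an adjusted p). It was 1 with the replicate number as a block, beside 132 of 36508 genes called lower. With 1 library left out it was 1 without control 2 (152 of 38168 genes), fasted 2 (1684 of 39471) or fasted 3 (7 of 38327). It was 2 without control 1 (858 of 38248) or fasted 1 (93 of 38494), and 3 without control 3 (3903 of 37917). In the fit restricted to the 10637 genes above the background, 0.0% of genes were called, the smallest adjusted p being 0.0904, with 2109 genes at an unadjusted p under 0.05. None of the 8 was called there by edgeR or limma-voom, and DESeq2 called 3 of them, beside 1.65% of the 10637 genes called lower. The groups were fully apart, every fasted library below every control library, for 3 of the 8 genes (Ms4a3, Nkg7 and Igsf6), and for 12.9% of the 10637 genes. With TMM factors over all genes, 7 of the 8 were apart, all but Elane, but so were 47.6% of the same 10637 genes, and the median log2 fold change of those genes was -0.50 in that fit. All 8 log2 fold changes were below 0 whichever library was left out. Without control 3 they ran from -2.69 to -0.80 with a median of -1.55. Without fasted 3 they ran from -3.21 to -0.78 with a median of -1.75, and without control 1 the median was -2.54.

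The 8 genes varied together from library to library. Over the 6 libraries, Pearson's r of log2(CPM + 1) between pairs of the genes was 0.893 (Elane with Nkg7) to 0.999, with a median of 0.977 over 28 pairs. These are descriptions over 6 libraries that share the group difference and the choice of genes. For 5 genes (Mpo, Elane, Prtn3, Ctsg and Plac8) the libraries were in 1 order, with fasted 1 above control 1, and for the other 3 (Ms4a3, Nkg7 and Igsf6) control 1 was above fasted 1 with the rest unchanged. Within the control group the 8 genes ranged 1.96-fold to 14.9-fold and within the fasted group 2.77-fold to 5.54-fold. Over the 10637 genes the median range was 1.37-fold among control and 1.30-fold among fasted libraries, and the 95th percentiles were 3.27-fold and 2.42-fold.

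Ratios between the genes within a library do not depend on scaling. Prtn3 to Ctsg was the steadiest of the 28 ratios, at 0.690, 0.583 and 0.720 in the control libraries and 0.593, 0.681 and 0.690 in the fasted libraries. Mpo kept a ratio to Prtn3 and to Ctsg that varied 1.37-fold over the 6 libraries, while Mpo itself varied 19.0-fold. Elane did not keep pace with its neighbour Prtn3. Elane to Prtn3 was 0.788, 2.85 and 2.18 in the control libraries and 1.28, 0.634 and 0.826 in the fasted libraries, high in control 2 and 3 and lower in the other 4. Ms4a3 to Igsf6 was 1.50, 2.57 and 3.22 against 1.27, 1.17 and 0.991, with all control libraries above all fasted ones. In fasted 3, both genes were under 5 times the background of that library, with 114 and 115 counts, so that ratio is partly background. How often ratios of other genes separate the groups was not counted.

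**Figure D2:**
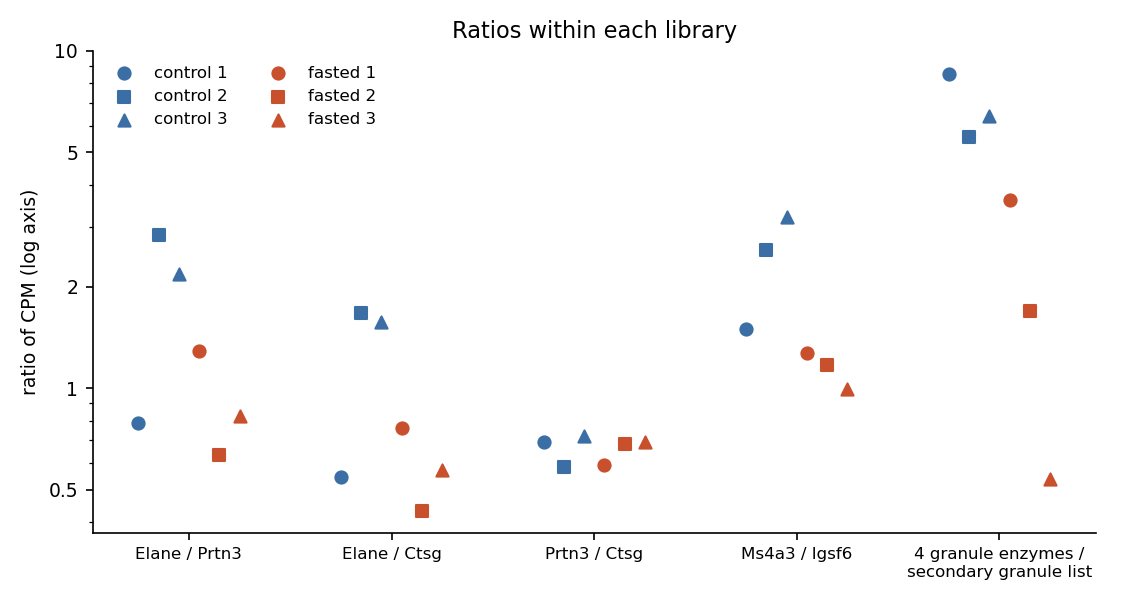
Ratios of CPM within each library, on a log axis, with blue for control, orange for fasted and the marker shape for the library number. Prtn3 to Ctsg stays between 0.583 and 0.720, Elane to Prtn3 ranges from 0.634 to 2.85, and the 4 primary granule enzymes relative to the secondary granule list range from 8.53 to 0.536.

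The other granule and granulocyte-monocyte genes, 83 in 5 lists, were tested in the same fits. Of 82 tested over all genes, 28 were called lower (34.1%) and 0 higher. All 28 were among the 71 listed genes that reached 5 times the background. Of all genes in the table that did so, a share of 12.9% was called lower in that fit. Markers of other lineages were called lower in the same fit too, 4 of 12 megakaryocyte genes, 4 of 12 mast cell, basophil and eosinophil genes, 3 of 12 stem and multipotent progenitor genes and 3 of 14 monocyte, macrophage and dendritic cell genes, with 0 called higher. For the 18 erythroid, 13 natural killer and T cell and 11 B cell markers the count was 0 in either direction. Whether the granule and granulocyte-monocyte lists differ from these lists was not tested. In the restricted fit 65 of the 71 had a log2 fold change below 0, with a median of -0.46, and 0 were called by edgeR, with a smallest adjusted p of 0.131 and 21 genes at an unadjusted p under 0.05. DESeq2 called 9 of the 71 lower, and limma-voom 0. Without fasted 3, 0 of these genes were called in the all-gene fit, with a smallest adjusted p of 0.106. At an unadjusted p under 0.05 there were then 48 of 83, against 53 of 82 with that library, and calls over the whole table were 7 against 1813. Without control 1, 44 of the listed genes were called, without control 2 it was 11, and without fasted 1 it was 9. The lists were chosen with results of these libraries known.

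In the all-gene fit, the list of other primary granule and lysosomal cargo had 6 of 15 genes called lower. These were Cd63, Hexa, Gusb, Lyz2, Ctsa and Man2b1. In the restricted fit edgeR called 0 of the 13 tested, with a median log2 fold change of -0.36. Epx, among the 15, is also in the mast cell, basophil and eosinophil list. Prss57, a serine protease of the same granule that lies near Elane and Prtn3, had the lowest fold change of this list. It had 25.0, 89.8 and 144 CPM in the control libraries and 35.7, 15.5 and 13.9 CPM in the fasted ones, a log2 fold change of -2.00 (SE 0.73), and was not called. It kept the pattern of its granule partners, with control 1 under fasted 1. Cd63, a tetraspanin of the granule membrane, fell from 131 ± 46.8 to 63.8 ± 11.1 CPM (log2 fold change -1.04, and -1.51 in the all-gene fit with edgeR adjusted p = 0.00854). Gusb, the lysosomal beta-glucuronidase, was 294 ± 22.1 against 200 ± 4.95 CPM, a small difference with little spread. The cathepsins D and B of the general lysosome had log2 fold changes of -0.05 and -0.13 and were not called.

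In the list of 11 genes drawn up for protease processing, packing and inhibition, edgeR called 0 in the restricted fit. In the all-gene fit 5 were called lower (Serpinb1a, Ctsc, Hk3, Calr and Canx). Of these, Hk3 is a hexokinase with none of these roles, and Calr and Canx are general chaperones of the endoplasmic reticulum. Serpinb1a, an inhibitor of elastase, cathepsin G and proteinase 3, was at 156, 220 and 303 CPM in the control libraries and 127, 94.5 and 60.5 CPM in the fasted ones, with no overlap (edgeR adjusted p = 0.00854 with all genes tested and 0.146 with the restricted set). Ctsc, the dipeptidyl peptidase that activates these proteases, was at 106 ± 15.8 against 65.9 ± 9.92 CPM, a restricted log2 fold change of -0.68. Both the inhibitor and the activator were thus lower in every fasted library than in every control library, as were 12.9% of the 10637 genes. Their fold changes were smaller than those of the proteases, which were chosen on this contrast. Srgn, the proteoglycan core that holds the proteases in the granule, was at 669 ± 247 and 523 ± 139 CPM and was not called.

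Of 12 granulocyte-monocyte transcription factors tested, 3 were called lower in the all-gene fit (Cebpe, Myb and Cebpa), and the restricted median of the list was -0.15. Cebpe, which drives the passage from promyelocyte to myelocyte, was at 5.28, 23.2 and 35.1 CPM in the control and 6.69, 2.61 and 3.62 CPM in the fasted libraries. This is a log2 fold change of -2.31 (SE 0.70). Cebpe passed the filter on its mean count, but in each fasted library it was under 5 times the background of that library. Its counts there were 77, 41 and 48, so the fasted values are partly background and the fold change is not compared with those of the 8 genes. Spi1, which encodes PU.1, was at 181 ± 61.1 and 135 ± 64.3 CPM, and Irf8 at 203 ± 60.6 and 206 ± 87.8 CPM, neither of them called. Klf4 pointed the other way, at 17.3 ± 9.05 and 34.2 ± 12.2 CPM, and was not called either.

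The surface and signalling list had 11 of 25 genes called lower in the all-gene fit. The 6 with the smallest p were Atp8b4, Csf3r, Cst7, Anxa3, Rab44 and Csf2ra. The restricted median of the list was -0.67. Csf3r, the receptor for granulocyte colony-stimulating factor, was at 98.9, 97.4 and 137 CPM in the control libraries and 75.5, 60.1 and 35.0 CPM in the fasted ones. Csf2ra, a chain of the receptor for granulocyte-macrophage colony-stimulating factor, was at 54.3 ± 21.3 and 34.8 ± 8.25 CPM. Fcgr3 encodes CD16 and Fcgr2b encodes CD32, the CD16/32 antigens by which granulocyte-monocyte progenitors are sorted away from megakaryocyte-erythroid progenitors. Fcgr3 was at 19.7, 87.0 and 124 CPM in the control and 22.9, 13.8 and 17.1 CPM in the fasted libraries. Control 2 and 3 thus stood well above the other 4, as they did for Elane. Fcgr2b differed less and overlapped between groups, at 32.3, 45.7 and 69.9 CPM in the control and 39.5, 30.2 and 32.3 CPM in the fasted libraries. Whether the sorting gate differed between libraries was not tested.

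**Figure D3:**
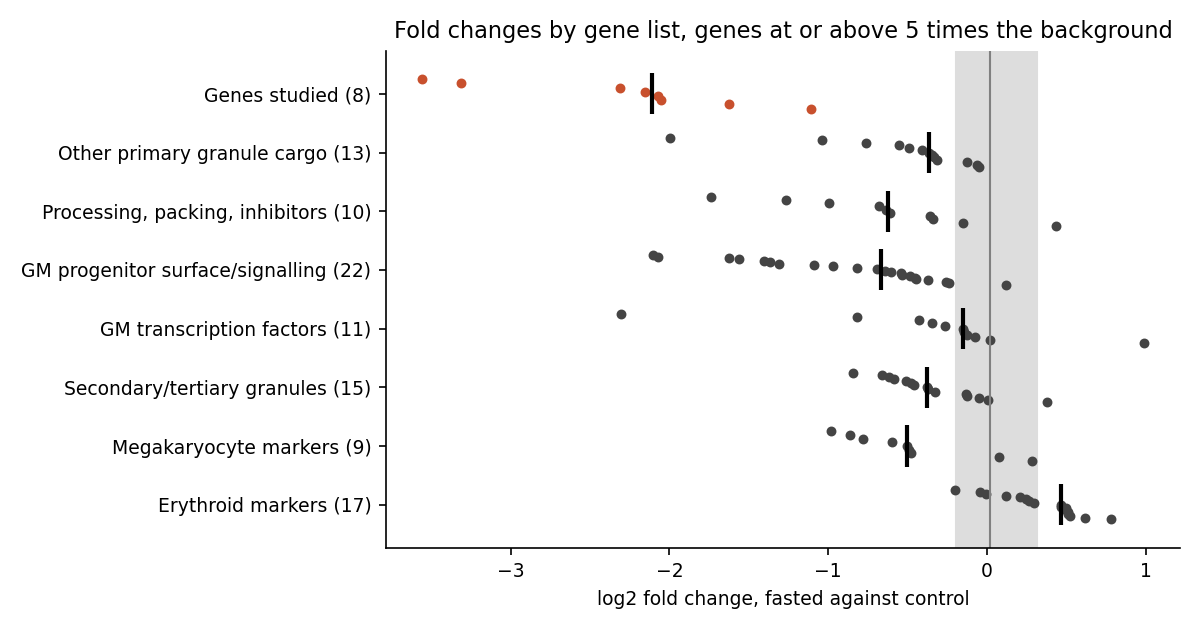
Log2 fold change, fasted against control, of each gene in the restricted fit, by list, with the number of genes in brackets and a black bar at the list median. The vertical line and grey band are the median and the quartiles of all 10637 genes (0.02, -0.19 and 0.32). The 8 genes chosen, in orange, have a median of -2.11, and the other granule and progenitor lists lie between -0.67 and -0.15.

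Secondary and tertiary granule genes, which neutrophil precursors switch on after the primary granule genes, followed another pattern over the libraries. Of 19 genes in this list, 3 were called lower in the all-gene fit (Ltb4r1, Padi4 and Retnlg), and the restricted median was -0.38. Of these, Ltb4r1, a leukotriene B4 receptor, and Padi4, a deiminase, are neutrophil genes but not cargo of these granules. S100a8 and S100a9, of the cytosol, and Ly6g, of the cell surface, are also in the list without being such cargo. The summed level of all 19 genes was 388, 1899 and 2566 CPM in the control and 1028, 1250 and 1483 CPM in the fasted libraries. It was lowest in control 1 and within a narrow band in the fasted group. Camp, the cathelicidin precursor, showed it at 17.7, 168 and 231 CPM in the control and 89.9, 116 and 125 CPM in the fasted libraries, and Ltf, lactoferrin, at 46.9, 207 and 261 against 107, 127 and 140 CPM. The summed CPM of Mpo, Elane, Prtn3 and Ctsg was set against all 19 genes of this list. The ratio was 8.53, 5.56 and 6.40 in the control libraries and 3.60, 1.70 and 0.536 in the fasted ones. This ratio thus separated the groups where the levels of the 4 enzymes did not. Since the enzymes were chosen on this contrast, the ratio is a description. Ly6g, the surface antigen of mature neutrophils, was near the background with 1.32 to 3.26 CPM in the control and 2.55 to 4.22 CPM in the fasted libraries.

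**Figure D4:**
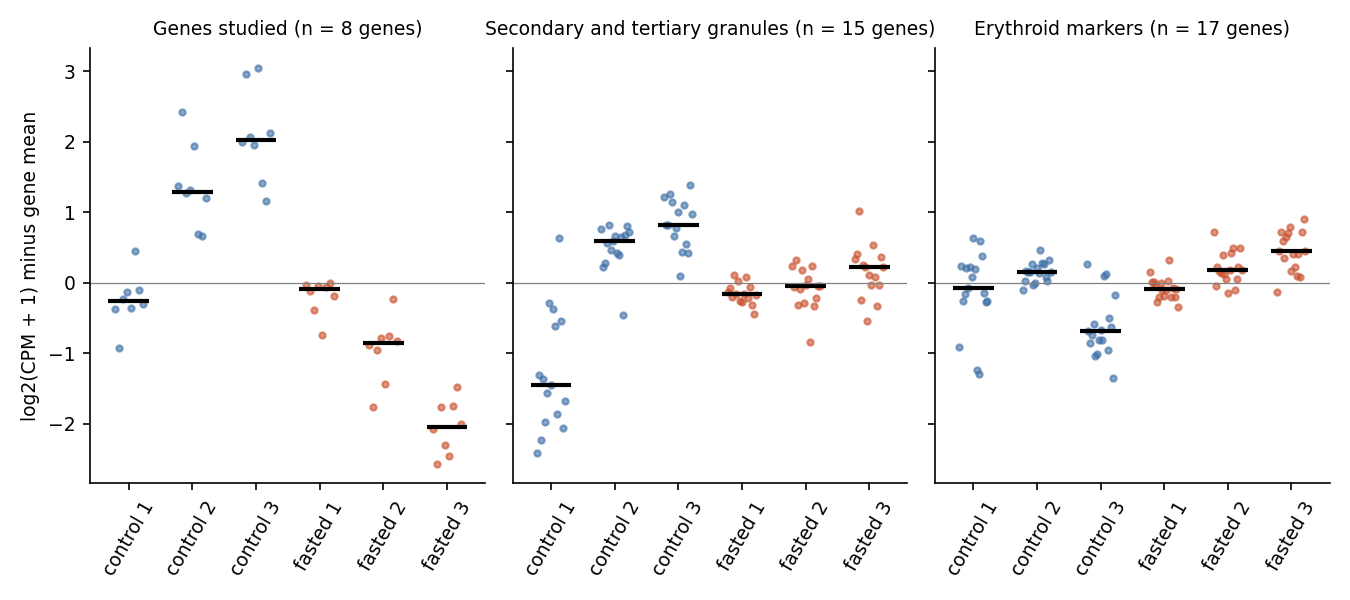
Level of each gene in each library relative to its own mean over the 6 libraries, as log2(CPM + 1), for the 8 genes, the secondary and tertiary granule list and the erythroid list, with black bars at the medians. The 8 genes have medians of -0.27, 1.29 and 2.03 in the control and -0.09, -0.85 and -2.04 in the fasted libraries, while the secondary granule list is lowest in control 1 at -1.45 and the erythroid list lowest in control 3 at -0.69.

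Markers of other cell types moved partly with the 8 genes. The summed monocyte, macrophage and dendritic cell list (14 genes) was 469, 894 and 995 CPM in the control and 902, 1130 and 274 CPM in the fasted libraries, lowest in fasted 3 as the 8 genes were but high in fasted 1 and 2. The mast cell, basophil and eosinophil list (12 genes) was 371 to 489 CPM in the control and 282 to 356 CPM in the fasted libraries. Mcpt8, a basophil protease gene near Ctsg, was called lower in the all-gene fit (24.8 ± 11.9 and 10.4 ± 4.89 CPM). The B cell list (11 genes) summed to 96.1 to 170 CPM in the control and 157 to 334 CPM in the fasted libraries. The megakaryocyte list (13 genes) summed to 643 to 867 CPM in the control and 400 to 602 CPM in the fasted libraries, and the stem and multipotent progenitor list (12 genes) to 1338 to 1786 and 1089 to 1482 CPM. Among the defining markers, Itga2b, Pf4, Kit and Cd34 were present in every library, Cd3e ran from 3.60 to 15.6 CPM, and 0 genes of the marker lists were at 0 counts in any library. The part of these cell types in the values of the 8 genes was not tested.

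The genes around the proteases did not all share their values. Of 18 neighbours of the protease genes, 16 were tested in the all-gene fit and 1, Mcpt8, was called there. Only 6 of the 18 reached 5 times the background, and the rest are too near it to be compared. Prss57, which is among the 18, did keep the pattern of Elane and Prtn3, with a restricted log2 fold change of -2.00. Between Prtn3, Elane and Prss57 on chromosome 10 and their neighbours, R3hdm4 had a restricted log2 fold change of -0.10 and Med16 of 0.28, neither called. Beside Ctsg on chromosome 14, Gzmc was at 2.80 ± 0.726 and 7.99 ± 1.17 CPM, higher in every fasted library and not called.

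Among 7563 genes above the background with a mean of at least 20 CPM, 10 genes were named for the profile most like the mean of the 8 over the 6 libraries. They were Lamtor4 (Pearson's r of 0.997), Gpi1 (0.996), Anxa3 (0.993), Glrx (0.992), Krtcap2 (0.991), Tmed3 (0.988), Casp1 (0.986), and Prdx5, Hk3 and Serpinb1a (0.985 each). Their ranges were smaller, 1.76-fold (Glrx) to 7.81-fold (Anxa3) over the 6 libraries, against 6.23-fold (Plac8) to 50.7-fold (Ms4a3) for the 8 genes. Gpi1, the glycolytic glucose-6-phosphate isomerase, was at 402, 547 and 615 CPM in the control and 431, 378 and 309 CPM in the fasted libraries, in the library order of Mpo.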

How the data were processed

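RNA-seq of 6 libraries was analysed, 3 control and 3 fasted for 6 h. The authors deposited raw counts per gene with exonic lengths. GRCm38, HISAT2 2.2.1 and featureCounts 2.0.1 are named per the submitters' processing notes, while the annotation, strand setting and read filters are not given in the sources used here. Of 55487 identifiers, 54435 matched GENCODE M21 with their version, all with equal merged exon length, and 0 rows named no gene. The 8 genes, the lists and the tests were chosen with earlier results of these data known. edgeR 4.0.16 in R 4.3.3 (filterByExpr, TMM, robust glmQLFit, group as the only term) tested all genes kept, and again the genes with a mean count of at least 5 times the receptor-gene rate times their length, with TMM factors from those genes. The script was tested on simulated data. The SE of a log2 fold change is its size over the square root of F. In each list the genes called, up to 6 by smallest p, were named, or 2 with values where none was called, together with markers fixed by name and the 10 genes of most similar profile. Prss57, Srgn, Ctsd, Ctsb, Spi1, Irf8, Klf4, Camp, Ltf, Med16, R3hdm4 and Gzmc were added for their roles or position after their values were seen. Alternatives were RLE factors, library totals, TMM from the restricted genes, background subtraction, 2 and 10 times the background, no filter or 1 CPM in 3 libraries, DESeq2 1.42.0, limma-voom (limma 3.58.1), the replicate number as a block, and each library left out. Totals were 12797144 to 30246110 counts per library, and for the 8 genes the spread between libraries, not counting error, limits precision.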

Additional observations from a re-analysis of the deposited data

How the results depend on the processing

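All 8 genes kept a log2 fold change below 0 in each of the 15 settings of either fit. It ran from -4.69 (Elane) to -1.11 (Plac8) over all genes and from -4.32 (Elane) to -0.78 (Plac8) in the restricted fit. As the genes were chosen on this contrast in the same libraries, their sign is a description only. Counts of calls changed widely with the setting. Over all genes 1813 were called, 2973 with RLE factors, 4523 with library totals (4224 higher, 299 lower), 5245 with TMM factors from the genes above the background (4990 higher, 255 lower), 2849 with no filter and 5694 with DESeq2 (358 higher, 5336 lower). Leaving out 1 library gave 7 (without fasted 3) to 5379 (without control 3) calls. Of the other granule and progenitor genes 28 were called, 9 with library totals, 6 with TMM factors from the genes above the background, 55 with DESeq2, and 0 (without fasted 3) to 44 (without control 1) with 1 library left out. In the restricted fit, where edgeR called 0 genes, 1614 were called at 2 times the background and 502 with DESeq2, and 0 to 3 with 1 library left out. Of the listed genes there, 20 were called at 2 times the background, 9 with DESeq2 and 0 to 1 with 1 library left out. With the replicate number as a block, 146 genes were called over all genes, 7 of them listed, and 0 in the restricted fit. The deviations of same-numbered libraries from their group means correlated at -0.18, 0.14 and -0.37, and those of differently numbered libraries at -0.20 to 0.32. With 3 libraries in each group, these values cannot decide whether the replicate numbers pair the libraries. The cause of the changes in the counts of calls was not tested. The fasted libraries hold fewer counts than the control ones, and the effect of depth on the calls was not tested.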
